A study of Rattus norvegicus with 6 samples.

Results

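The immunoproteasome and the machinery that loads peptides onto major histocompatibility complex (MHC) class I molecules were followed in the spinal cord of rats with bone cancer pain (BCP) and of sham-operated rats. The genes were chosen by name, as Psmb8, Psmb9, Psmb10, Psme1, Psme2, Tap1, Tap2, Tapbp, B2m and Nlrc5, and these 10 names took up 11 of the 30957 rows of the deposited gene table because Tap2 is listed at 2 places. All 11 rows had counts in every library and all were among the 14908 genes with enough counts to be tested. Female Wistar rats were inoculated in the marrow cavity of the left tibia with cells of Walker 256, a mammary carcinoma of the rat. In BCP rats the cells were alive and in sham-operated rats they had been killed by heat, so both groups had the same surgery and both carried material of the tumour cells. The tumour lay in the tibia, and the tissue sequenced on day 14 was the left (ipsilateral) side of the lumbar enlargement of the spinal cord, without its meninges. There were 3 libraries per group, and neither the labels nor the methods of the study say whether a library was made from 1 rat or from several, so the p-values measure the spread between libraries.

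The proteasome cuts cytosolic proteins into peptides with the catalytic beta subunits of its 20S core. Interferon-gamma induces another set of catalytic subunits, encoded by Psmb8, Psmb9 and Psmb10, which take the places of the constitutive subunits encoded by Psmb5, Psmb6 and Psmb7 in newly assembled cores and shift the cuts towards peptide ends that fit class I molecules. Psme1 and Psme2 encode the alpha and beta subunits of PA28, a ring that caps the core. The peptides are carried into the endoplasmic reticulum by the transporter formed by Tap1 and Tap2, handed over with the help of tapasin (Tapbp), and bound by a class I heavy chain together with beta-2-microglobulin (B2m). Nlrc5 is the transactivator that drives transcription of class I genes and of several genes of this machinery, as Ciita does for class II. In the resting spinal cord the pathway is expressed at low levels, mostly by microglia and endothelium, and neurons and glia can raise it under interferon.

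The promoters are shown because a DNA element of the interferon pathway is common to most of them. A window from 250 bases before to 50 bases after the gene start was found in the RefSeq promoter table (build GRCr8) for 9 of the 10 names, all but Nlrc5. On either strand the letters GAAA, 2 bases of any kind and again GAAA, the core of the interferon-stimulated response element (ISRE) to which Irf proteins bind, occurred in 7 of these 9 windows, in 0 of the 3 windows of Psmb5, Psmb6 and Psmb7, and in 3.92% of all 33469 windows of that length. A match is a run of letters and not a known site. The matches are given below in capitals, with flanking bases in lower case, 5′ to 3′ along the strand of the gene, and where the capitals begin with TTTC the match is on the opposite strand.

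B2m, chr3:129549155-129549214, plus strand: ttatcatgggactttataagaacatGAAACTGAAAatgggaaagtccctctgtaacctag
Psme2, chr15:33052770-33052829, minus strand: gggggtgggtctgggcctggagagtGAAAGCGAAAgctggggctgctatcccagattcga
Psmb10, chr19:50743293-50743390, minus strand: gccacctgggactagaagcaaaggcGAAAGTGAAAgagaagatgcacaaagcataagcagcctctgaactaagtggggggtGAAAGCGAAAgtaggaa
Tap2, chr20:4652303-4652362, minus strand: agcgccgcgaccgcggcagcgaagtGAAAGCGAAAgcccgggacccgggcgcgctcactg
Psmb8, chr20:4657026-4657060, minus strand: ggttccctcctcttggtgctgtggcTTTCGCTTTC
Tap1, chr20:4668630-4668689, minus strand: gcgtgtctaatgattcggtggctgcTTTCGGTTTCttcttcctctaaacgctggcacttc
Tapbp, chr20:4967878-4967928, minus strand: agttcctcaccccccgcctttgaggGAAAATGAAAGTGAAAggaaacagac

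Psmb10 held 2 separate matches and Tapbp held 2 that overlap by 4 bases. The letters were not found in the windows of Psmb9 and Psme1. Psmb9 and Tap1 lie head to head, with starts 457 bases apart in GRCr8. The Tap1 match lies between these starts but outside the Psmb9 window, so the lack of a match for Psmb9 depends on the window length. The letters TTC and GAA with 3 bases between them, the interferon-gamma activated sequence, occurred in 1 of the 9 windows (Psmb8) and in 8.87% of all windows. The letters GGG and CC with 5 bases between them, a short form of the NF-kB element that any G+C-rich window is likely to hold, occurred in 6 of the 9 windows, in 2 of the 3 windows of the constitutive subunits and in 47.3% of all windows.

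The libraries held between 11779485 and 15004290 counts on genes. The counts are of reads that the authors assigned to each gene, and levels are given as CPM, the count divided by the TMM-scaled size of its library in units of 1e+06 counts, or, where genes are compared with each other, as the authors' FPKM, which also divides by gene length. Differences between groups were tested with edgeR's quasi-likelihood test across all 14908 tested genes, and a gene was called up-regulated when its Benjamini-Hochberg adjusted p was under 0.05 and its log2 fold change (log2FC) was over 1. Sham library 3 and BCP library 1 had the lowest levels of their groups for these genes. Sham library 3 had the lowest CPM of its group in 11 of 11 rows, whereas it was the lowest for 35.8% of all tested genes. BCP library 1 was the lowest of its group in 11 of 11 rows and for 35.9% of all tested genes. Its gap to the next BCP library was small in some rows, as at 22.7 against 23.2 CPM for Tap2 at 5.2 Mb. BCP library 2 was the highest of its group in 9 of 11 rows and for 32.5% of all tested genes. Rows that vary together are not separate observations of such an order. The level in sham library 3 was between 0.38 (Psmb8) and 0.78 (Psme2) of the mean of the other 2 sham libraries, and it was under 0.65 of that mean in 6 of the 11 rows and in 4.45% of all tested genes. The coefficient of variation within the sham group thus had a median of 27.1% over the 11 rows, against 7.38% over all tested genes, and within the BCP group 13.3% against 7.51%.

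The genes of the pathway were higher in BCP rats. Of the 11 rows 10 were up-regulated, by 2.01-fold (Psme2) to 6.31-fold (Nlrc5), where 6.35% of all tested genes were up-regulated and 0.107% were down-regulated. The same 10 rows had an adjusted p under 0.05 when no fold threshold was set, as did 15.8% of all tested genes in the upward direction. The remaining gene, Tapbp, was 1.99-fold higher and did not pass the test. In 11 of 11 rows every BCP library lay above every sham library, as it did in 21.7% of all tested genes. The median log2FC was 1.79 over the 11 rows and -0.01 over all tested genes. Without sham library 3, 11 of 11 rows had an adjusted p under 0.05 and 9 of them had a log2FC over 1. In bulk tissue, more cells that express a gene and more RNA of the gene per cell cannot be told apart.

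**Figure D1:**
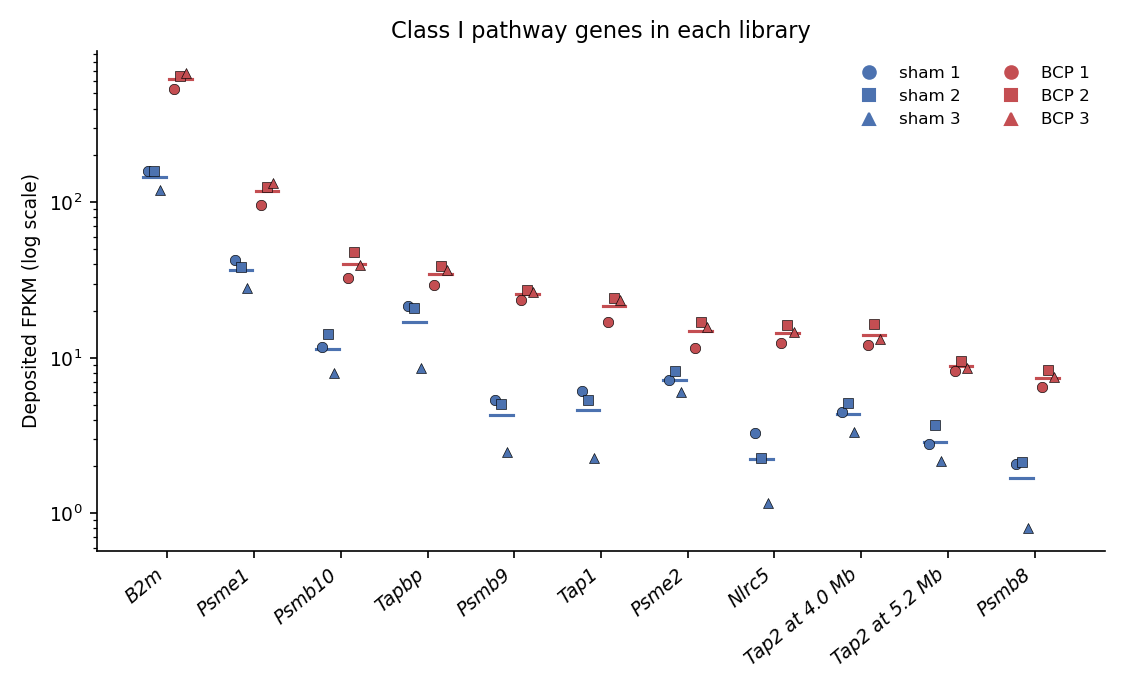
Deposited FPKM (log scale) of each gene row in each of the 6 libraries, with sham in blue and BCP in red, the library number given by the symbol and the horizontal line at the group mean (n = 3). Genes are ordered by their mean in BCP, from B2m at 619 to Psmb8 at 7.45, and in all 11 rows the BCP symbols lie above the sham symbols, with sham library 3 (triangle) lowest in its group.

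All 3 catalytic subunits of the immunoproteasome were up-regulated. Psmb9 (chr20:3973420-3978845, Rnor_6.0), the caspase-like site's replacement, was measured at 8.999, 8.45 and 4.12 CPM in sham libraries 1, 2 and 3 while the BCP libraries, in the same order here and in what follows, held 38.7, 44.2 and 43.0 CPM. The lowest BCP library was far above the highest sham library, and the log2FC was 2.56 (SE 0.25), that is 5.88-fold, with an adjusted p of 0.000817 by edgeR's quasi-likelihood test. Psmb8 (chr20:3990613-3993769), which replaces the chymotrypsin-like subunit, was measured at 8.24, 8.45 and 3.18 CPM in sham and at 25.1, 31.9 and 28.6 CPM in BCP libraries. Sham library 3 was below the other sham libraries by more than the BCP libraries differed among themselves on a log scale, and the log2FC was 2.12 (SE 0.35, adjusted p = 0.0126 by edgeR). The adjusted p of edgeR's test missed the threshold without BCP library 2 (log2FC 2.03, adjusted p = 0.0507) and without BCP library 3 (log2FC 2.12, adjusted p = 0.0561). Psmb10 (chr19:37909546-37912027), the replacement of the trypsin-like subunit, was measured at 11.97, 14.2 and 8.11 CPM in sham and at 32.5, 47.0 and 38.5 CPM in BCP libraries. Its groups did not overlap, and its log2FC was 1.79 (SE 0.24, adjusted p = 0.00304 by edgeR).

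The constitutive counterparts were not called in either direction. Psmb5 was measured at 47.9 ± 1.38 CPM in the sham group and 48.0 ± 5.03 CPM in the BCP group (SD, n = 3). Psmb7 was measured at 97.4 ± 6.53 and 97.4 ± 5.20 CPM, and Psmb6 at 18.6 ± 0.980 and 15.7 ± 0.933 CPM. The log2FC was 0.00 for Psmb5 and Psmb7 and -0.25 (SE 0.10, adjusted p = 0.0901 by edgeR) for Psmb6, of which every BCP library lay below every sham library, as was the case for 19.8% of all tested genes.

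A ratio of each immune subunit to its counterpart within a library is free of library scaling. By FPKM, Psmb9/Psmb6 was 0.206, 0.209 and 0.0922 in the sham group, with the libraries in the order of their numbers, and 1.14, 1.23 and 1.12 in the BCP group. Thus the Psmb9 level was below that of Psmb6 in every sham library and above it in every BCP library. Psmb10/Psmb7 was 0.232, 0.309 and 0.155 in sham and 0.617, 0.937 and 0.815 in BCP libraries, so the immune form stayed the lesser one in each library. Psmb8/Psmb5 was 0.0375, 0.0401 and 0.0153 in sham and 0.106, 0.152 and 0.148 in BCP libraries. The log2 ratios were higher in BCP by 2.87, 1.80 and 2.23 for the Psmb9, Psmb10 and Psmb8 pairs, and in each pair the groups did not overlap. With 3 libraries against 3 the exact two-sided permutation test gives p = 0.1 at the least, and it gave this value for each of the 3 pairs (adjusted p = 0.1 over the 3). The level of a ratio rests on the gene lengths used for FPKM. The length that the deposited counts and FPKM imply for Psmb8 was 3883 bases, longer than the 3157 bases the gene spans in the same table, and for the other 5 subunits it was shorter than the span, so the Psmb8 level may be understated, which leaves the difference between groups as it is. These are ratios of RNA, and assembled proteasomes were not measured.

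**Figure D2:**
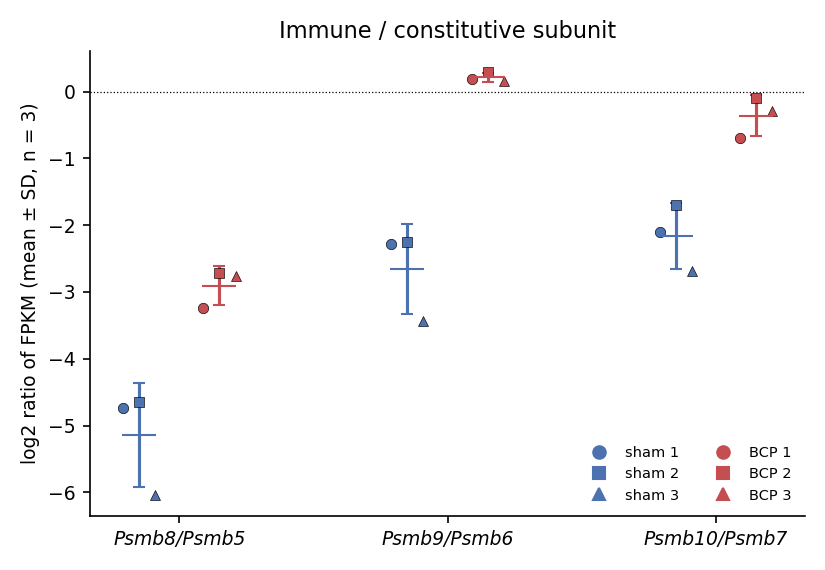
Log2 ratio of the FPKM of each immune catalytic subunit to its constitutive counterpart within each library, with the group mean and SD (n = 3) and a dotted line where both are equal. The Psmb9/Psmb6 ratio crosses the line between the groups, and the differences of the group means are 2.23, 2.87 and 1.80 from left to right.

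Both subunits of PA28 were up-regulated, to different degrees. Psme1 (chr15:34256071-34258947) was measured at 43.6, 39.0 and 28.7 CPM in sham and at 95.5, 122.8 and 130.2 CPM in BCP libraries, with a log2FC of 1.65 (SE 0.21, adjusted p = 0.00642 by edgeR). Psme2 (chr15:34265557-34269851) was measured at 9.84, 11.2 and 8.18 CPM in sham and at 15.5, 22.4 and 20.6 CPM in BCP libraries, with a log2FC of 1.01 (SE 0.15, adjusted p = 4.42e-05 by edgeR). The BCP libraries of Psme2 began at 15.5 CPM, close above the sham maximum of 11.2 CPM, and its fold change was just past the threshold of 2: without sham library 3 the log2FC was 0.89, without BCP library 2 it was 0.90, and without BCP library 3 it was 0.97. The span of Psme1 shares 2574 bases with Emc9, a gene that did not pass the test (log2FC -0.34, adjusted p = 0.118 by edgeR), and whether counting used strand is not given in the sources used here.

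The transporter was up-regulated in all its rows. Tap1 (chr20:3979035-3989669) was measured at 31.6, 27.3 and 11.6 CPM in sham and at 85.6, 120.8 and 116.4 CPM in BCP libraries. Sham library 3 held well under the level of the other sham libraries, and the log2FC was 2.20 (SE 0.41, adjusted p = 0.0227 by edgeR). By the same edgeR test the call was lost without sham library 2 (adjusted p = 0.0769), without BCP library 2 (adjusted p = 0.0840) and without BCP library 3 (adjusted p = 0.0823), with a log2FC between 2.12 and 2.33. Tap2 is listed at chr20:3995544-4009587, next to Psmb8, and again at chr20:5198258-5212624, whereas the RefSeq table of GRCr8 lists 1 Tap2, so the rows may hold reads of 1 gene split between copies. The first row was measured at 11.1, 12.6 and 8.18 CPM in sham and at 29.3, 39.6 and 31.5 CPM in BCP libraries (log2FC 1.66, SE 0.16, adjusted p = 2.21e-05 by edgeR). The second was measured at 7.78, 10.3 and 6.08 CPM in sham and at 22.7, 25.7 and 23.2 CPM in BCP libraries (log2FC 1.57, SE 0.15, adjusted p = 3.97e-07 by edgeR). Neither row had overlapping groups.

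Tapbp (chr20:5468056-5476007), which bridges the transporter and the class I molecule, was measured at 34.4, 33.1 and 13.7 CPM in sham and at 45.7, 59.4 and 55.9 CPM in BCP libraries. Sham libraries 1 and 2 were closer to the lowest BCP library than to sham library 3. The log2FC was 0.99 (SE 0.39) with an adjusted p of 0.158 by edgeR. Without sham library 3 the log2FC was 0.67 (SE 0.10) and the adjusted p was 7.22e-05, so that leaving this library out made the difference smaller and its error smaller still.

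B2m (chr3:114087287-114093309), the light chain shared by all class I molecules, had the most counts of these genes. It was measured at 297.6, 291.7 and 221.5 CPM in sham and at 976.5, 1163 and 1205 CPM in BCP libraries, a 4.13-fold difference (log2FC 2.05, SE 0.16, adjusted p = 0.00133 by edgeR). Nlrc5 (chr19:10905542-10976396) had the largest fold change of these genes, from 19.3, 13.1 and 6.76 CPM in sham to 70.6, 92.0 and 82.1 CPM in BCP libraries (log2FC 2.66, SE 0.38, adjusted p = 0.0102 by edgeR). Its sham libraries were spread by more than 2-fold and its BCP libraries by less, and without sham library 2 its adjusted p was 0.0526 at a log2FC of 2.67.

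Per length, B2m was the most abundant of these transcripts in both groups, at 146 ± 22.7 FPKM in sham and 619 ± 72.1 FPKM in BCP libraries (SD, n = 3), followed by Psme1 at 36.5 ± 7.48 and 118 ± 19.4 FPKM. In both groups the libraries of B2m, of Psme1 and of the next gene did not overlap. Tapbp came next in sham libraries, at 17.1 ± 7.28 FPKM, and Psmb10 in BCP libraries, at 40.1 ± 7.65 FPKM, with Tapbp at 34.8 ± 4.86 FPKM below it, and in both groups the libraries of Tapbp and Psmb10 overlapped. From Tapbp down, every neighbouring pair in the order overlapped in sham libraries. In BCP libraries the neighbours that did not overlap were Tapbp above Psmb9, at 25.8 ± 1.96 FPKM, and the first Tap2 row, at 14.0 ± 2.33 FPKM, above the second, at 8.79 ± 0.625 FPKM. Psmb8 was last in both groups, at 1.68 ± 0.757 and 7.45 ± 0.927 FPKM, with the limit on its length given above.

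The rest of the proteasome showed no call. Over the constitutive subunits, the other subunits of the 20S core, the 19S regulatory particle and the other activators, inhibitors and assembly factors, 42 genes were tested and 0 were called by edgeR, with a median log2FC of 0.04. Over all tested genes 6.35% were up-regulated and 0.107% were down-regulated. DESeq2 also called 0 of them, and 13 had an unadjusted p under 0.05 in edgeR's test, none with a log2FC over 1 in either direction. Of the 11 other 20S subunits 6 had an adjusted p under 0.05 in the upward direction, below the fold threshold, among them Psma3 (log2FC 0.28) and Psma4 (log2FC 0.30). The median log2FC of the 11 was 0.21, and 15.8% of all tested genes passed that level upwards. Of the 21 genes of the 19S particle, which unfolds ubiquitinated proteins, 1 passed that level downwards, Psmc5 (log2FC -0.14), and the median log2FC was 0.02. Psmf1, an inhibitor of the 20S core, had a log2FC of 0.60 (adjusted p under the threshold), and Psme4, another activator of the core, 0.21.

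Among 8 tested peptidases that trim peptides 0 were called, and 4 had an adjusted p under 0.05 in the upward direction, as did 15.8% of all tested genes. The 2 with the smallest p were Nln (log2FC 0.59) and Lap3 (log2FC 0.43). Erap1, the trimming peptidase of the endoplasmic reticulum, named here with its value known, had a log2FC of 0.66 and an adjusted p of 0.0724. Of 7 loading chaperones and editors 1 was up-regulated, Tapbpl, which encodes TAPBPR, a relative of tapasin that edits the bound peptides, from 9.80 ± 3.70 to 32.6 ± 4.04 CPM (SD, n = 3; log2FC 1.74, adjusted p = 0.0119 by edgeR). Thus Tapbpl passed both thresholds, whereas Tapbp did not, and the difference between them was not tested. Another 4 had an adjusted p under 0.05 below the fold threshold, Pdia3, which encodes the oxidoreductase ERp57 (log2FC 0.43), Sppl2a (log2FC 0.56), Calr, which encodes calreticulin (log2FC 0.32), and Canx, which encodes calnexin (log2FC 0.15). Of 7 trafficking genes 0 were called, and the 2 with the smallest p were Sec61a1 (log2FC 0.32, adjusted p = 0.000475 by edgeR) and Copg1 (log2FC -0.08, adjusted p = 0.189). DESeq2 called 0 genes in either of the trimming and trafficking lists, where 5 and 1 had an unadjusted p under 0.05 by edgeR. In lists of 7 or 8 genes, 0 or 1 call is near the share of 6.35% up-regulated over all tested genes.

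**Figure D3:**
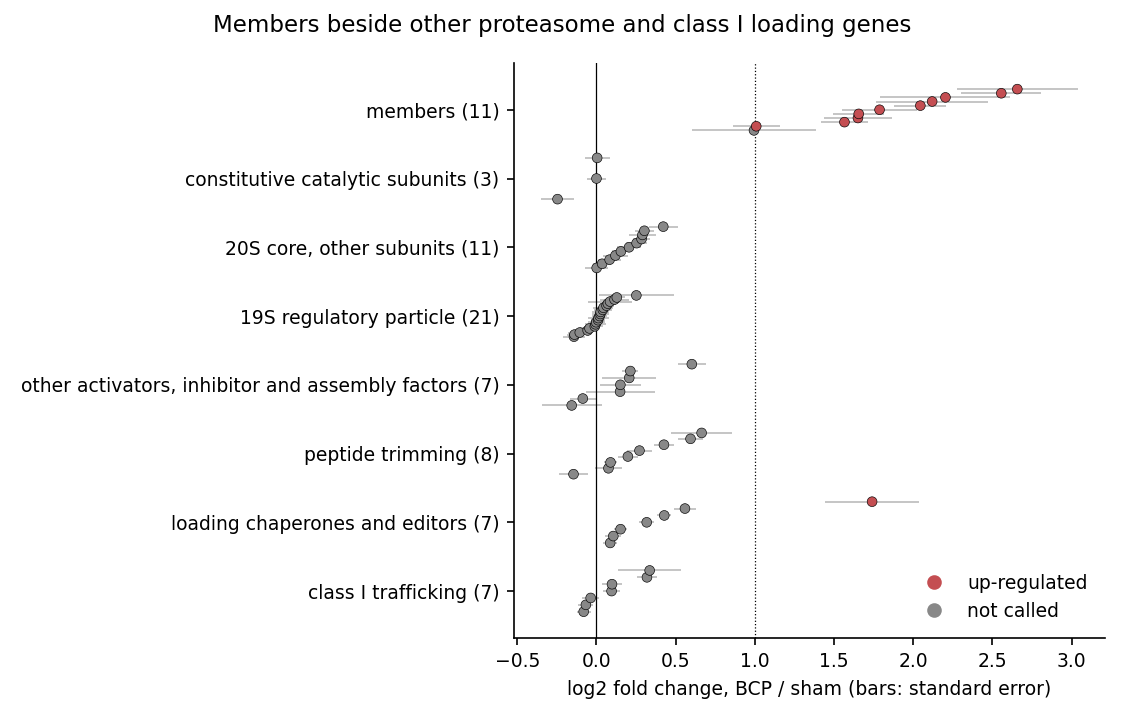
Log2 fold change of BCP over sham with its standard error for the 11 rows described here (members) and for the tested genes of 7 related lists, with the number of genes in parentheses, red points for up-regulated genes and a dotted line at a log2FC of 1. The 11 rows lie between 0.99 and 2.66, and in the other lists Tapbpl, at 1.74, is the single red point.

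Many class I heavy chain genes were up-regulated as well. Of 38 listed heavy chains and relatives 24 were tested, of which 14 were up-regulated and 0 were down-regulated, with a median log2FC of 1.79. Over all tested genes 6.35% were up-regulated and 0.107% were down-regulated. The 3 with the smallest p were RT1-CE7, from 11.4 ± 1.99 to 45.1 ± 3.47 CPM, RT1-CE16, from 14.6 ± 2.62 to 48.9 ± 3.51 CPM, and RT1-A3, from 0.475 ± 0.292 to 5.68 ± 0.863 CPM (SD, n = 3). RT1-A3 had 8, 2 and 10 counts in sham libraries and could be tested only through its BCP counts, which nearly fixed its call. The RT1 class I genes are near-identical copies that differ in number between rat haplotypes, so reads may be assigned to the wrong copy, and values of single RT1 genes are uncertain. Sham library 3 also differed from its group here. RT1-M6-1 had 69, 94 and 0 counts in sham libraries 1, 2 and 3 and 151 to 217 counts in BCP libraries, and RT1-CE2 had 135, 139 and 8 counts in sham and 24 to 45 counts in BCP libraries. Both were chosen after their values were seen, and neither was called with all libraries. Without sham library 3, RT1-CE2 was called lower in BCP, at a log2FC of -1.97 (SE 0.24). Heavy chain relatives that do not present peptides in this pathway, Hfe, Fcgrt and Mr1, had log2FC of 0.32, 0.04 and -0.06 and did not pass the test, whereas Cd1d1, which presents lipids, was up-regulated (log2FC 1.35); these relatives too were picked with their values known.

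Among the genes upstream of the pathway, 2 of 9 tested interferon ligands, receptors and signalling genes were up-regulated, where 6.35% of all tested genes were. Ifng, which encodes interferon-gamma, had 0 counts in each sham library and 18, 25 and 18 counts in BCP libraries, and it was up-regulated (adjusted p = 4.30e-06 by edgeR). Socs1, an inhibitor that interferon-gamma signalling induces, rose from 0.291 ± 0.201 to 2.13 ± 0.867 CPM (SD, n = 3; log2FC 2.88, adjusted p = 0.000161 by edgeR). Ifngr2 and Ifngr1, the chains of the interferon-gamma receptor, had log2FC of 0.96 and 0.64 with an adjusted p under 0.05, below the fold threshold. Ifnb1, a type I interferon, had 1 count in each BCP library and 0 in each sham library and was not tested. Of 18 tested transcription regulators 3 were up-regulated and 0 were down-regulated, and 8 had an adjusted p of 0.05 or more. Irf1, a first-line factor of the interferon-gamma response that binds the ISRE, rose from 11.3 ± 3.53 to 99.3 ± 15.3 CPM (SD, n = 3; log2FC 3.15, adjusted p = 0.00152 by edgeR). Irf8, a factor of microglia and other myeloid cells, rose from 13.7 ± 1.65 to 106.8 ± 12.8 CPM (log2FC 2.97). Ciita, the class II transactivator, rose from 0.145 ± 0.0808 to 47.2 ± 8.26 CPM (log2FC 8.29). Ifng, Socs1 and Ciita were near 0 in sham libraries and could be tested only through their BCP counts. Their calls were thus nearly fixed in advance.

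Several genes of the wider interferon response, picked with their values known, did not pass the test, and there too sham library 3 was low. Irf7, which amplifies type I interferon, had 1737, 1706 and 543 counts in sham and 2217, 3893 and 3256 counts in BCP libraries (log2FC 1.31, adjusted p = 0.174 by edgeR). Its groups did not overlap. Of 6 ubiquitin-like proteins of the interferon response and their enzymes, 1 was up-regulated, Ubd, which encodes FAT10, a modifier that sends proteins to the proteasome, from 0.315 ± 0.189 to 32.0 ± 6.48 CPM (SD, n = 3; log2FC 6.66). Ubd too was near 0 in sham libraries and could be tested only through its BCP counts, which nearly fixed its call in advance. The other 5, Isg15, Herc6, Ube2l6, Uba7 and Usp18, had log2FC between 0.62 and 1.09 and adjusted p between 0.161 and 0.441. Sham library 3 was at 0.27 (Isg15) to 0.48 (Herc6) of the mean of the other sham libraries in these 5 genes, at 0.29 for Irf7, and at 0.57 for Irf1, 0.83 for Irf8 and 0.97 for Psmb5.

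**Figure D4:**
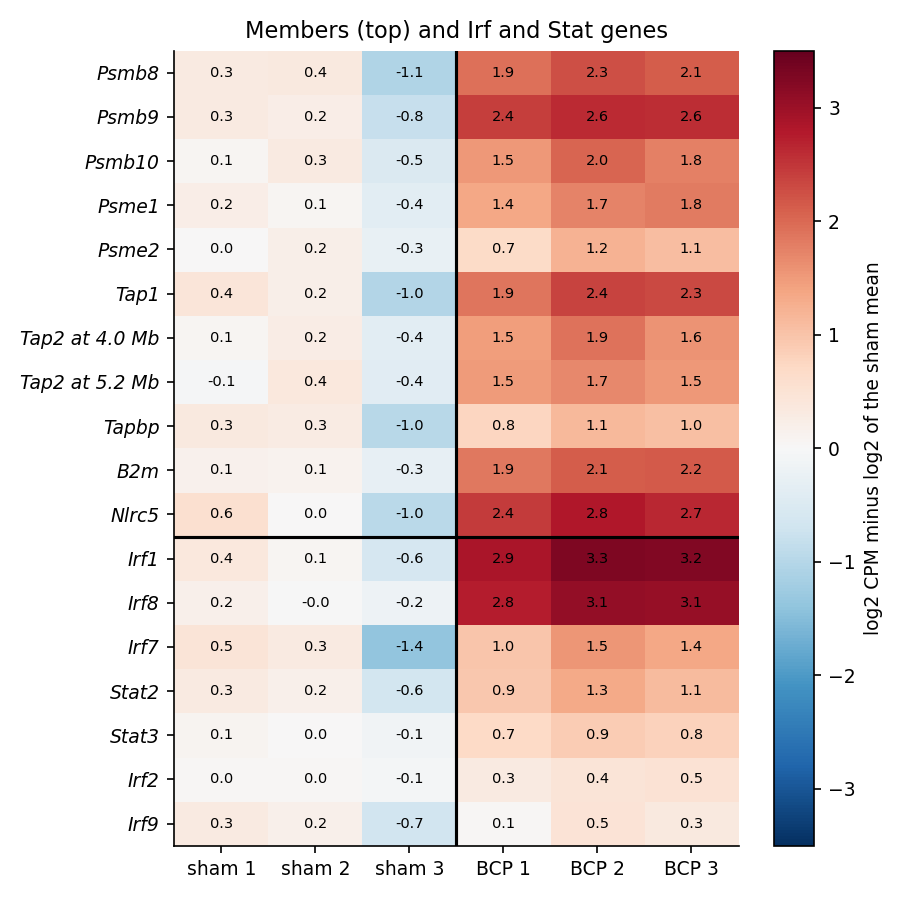
Log2 CPM in each library minus the log2 of the sham mean for the 11 rows described here (above the line) and for 7 Irf and Stat genes picked from the list of transcription regulators with their values known (below it), with the value printed in each cell and red for higher. Sham library 3 is negative in every row, from -1.4 for Irf7 to -0.1 for Stat3 and Irf2, and BCP library 1 has the lowest value of its group in every row. Over all 18 tested regulators sham library 3 was the lowest of its group in 13.

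Marker lists of cell types differed in whether and in which direction they moved between the groups. Summed over 18 listed markers of microglia, the level was between 458.5 and 572.4 CPM in sham and between 1307 and 1589 CPM in BCP libraries, lowest in sham library 3 and in BCP library 1. Of 17 tested markers 10 were up-regulated, where 6.35% of all tested genes were. Among the markers of homeostatic microglia, all of which are also in that list, 1 of 7 tested (Cx3cr1) was up-regulated. With no fold threshold, 3 of the 7 were higher with an adjusted p under 0.05, as were 15.8% of all tested genes. T cell markers summed to between 6.35 and 6.84 CPM in sham and between 57.5 and 67.1 CPM in BCP libraries. Of 11 listed 9 were tested and 9 were up-regulated, and Cd3d, Cd8b and Cd5 were at 0 in every sham library. NK cell markers summed to between 0.153 and 0.838 CPM in sham and between 16.7 and 28.7 CPM in BCP libraries. Of 8 listed rows 5 were tested and 5 were up-regulated. T and NK cell markers near 0 in sham could be tested only through their BCP counts, so for these a call was nearly fixed in advance. The T cell sum did not separate sham library 3, at 6.35 CPM, from sham library 1, at 6.41 CPM. Of 7 oligodendrocyte markers 7 had an adjusted p under 0.05 in the downward direction with a median log2FC of -0.41, and of 8 neuronal markers 6 did, with a median of -0.22, where 12.1% of all tested genes were lower with an adjusted p under 0.05. These markers of the labelled tissue were abundant in every library, the oligodendrocyte markers summing to 28140 CPM or more and the neuronal ones to 9176 CPM or more. Of 7 astrocyte markers 0 were called, but 1 (Gfap, log2FC 0.80) had an adjusted p under 0.05 in the upward direction and 3 in the downward one, and their sum lay between 6487 and 6723 CPM in sham and between 7587 and 9665 CPM in BCP libraries. The upper end was that of BCP library 1, where Aqp4 had 28568 counts against 4775 to 5427 in the other libraries. Of 6 endothelial markers 0 were called, of 6 monocyte and macrophage markers 1 was up-regulated (Plac8), and red blood cell markers rose from between 24.4 and 28.0 CPM to between 61.7 and 77.8 CPM. In marker lists this short, 0 or 1 call is near the share over all tested genes. Markers of B and plasma cells stayed at or under 1.14 CPM in sum, and epithelial tumour markers at or under 3.04 CPM. The part of these cell types in the difference of the class I genes was not tested.

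Of the 11 rows 6 lie on chromosome 20, within or beside the MHC. Within 200 kb of them 55 other genes were tested, of which 18 were up-regulated (32.7%) and 0 were down-regulated, and on the whole of chromosome 20 60 of 439 tested genes were up-regulated (13.7%). All 12 of the tested RT1 genes in these windows were up-regulated, and of the 43 tested genes with other names 6 were (14.0%), with a median log2FC of 0.01. Some of these RT1 genes could be tested only through the BCP group, which nearly fixed their call in advance. RT1-DOa, for example, had 0 counts in every sham library and 56, 70 and 87 in BCP libraries. The 3 neighbours with the smallest p, RT1-Ba, RT1-Da and RT1-Db1, encode chains of class II molecules, with log2FC of 6.75, 6.74 and 4.70.

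Within 10 kb of these genes 15 long non-coding RNAs (lncRNAs) were listed and 10 were tested, of which 2 were up-regulated and 0 were down-regulated, where 1.14% of all 12157 tested lncRNAs were up-regulated and 0.074% were down-regulated. NONRATT010439.2 overlaps Psme1 (log2FC 1.38, adjusted p = 0.0425 by edgeR), and ENSRNOT00000081316 lies 1298 bases from the second Tap2 row (log2FC 2.53, adjusted p = 0.0468). The latter has the span and the counts of AABR07044414.1 in the gene table, which is 1 of the 6 up-regulated neighbours with other names, so the same reads stand in both counts. Another 3 tested lncRNAs overlap B2m (NONRATT018531.2), Psme1 (NONRATT010440.2) and Psme2 (NONRATT010894.2), with log2FC of 1.66, 1.45 and 1.18 and adjusted p of 0.0866, 0.111 and 0.353. Reads of an overlapping gene and lncRNA may be shared, so these values may not be separate from those of the genes. The count of 2 fell to 1 without sham library 1 and to 0 without sham library 2 or without any 1 of the BCP libraries.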

How the data were processed

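Spinal cord RNA of 3 sham and 3 BCP libraries was depleted of ribosomal RNA, made into strand-specific libraries and sequenced. The authors mapped filtered reads with HISAT2 2.0.4 to Rnor_6.0, assembled expression with StringTie 1.3.0, and deposited raw counts per gene and per lncRNA transcript. The authors state that FPKM was calculated with StringTie, and the gene lengths used for it are not given in the sources used here. The counting program, its use of strand and its handling of reads with several locations are not given in the sources used here. A count shared by near-identical copies (Tap2, RT1 genes) may be split between them.

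Here, counts were fitted with edgeR 4.0.16 in R 4.3.3: filterByExpr, TMM, a robust quasi-likelihood fit on condition alone, and Benjamini-Hochberg adjustment over all tested genes (lncRNAs separately). Calls needed an adjusted p under 0.05 and an absolute log2FC over 1. Ratios of FPKM were compared by an exact permutation test. Values with few counts are imprecise because of counting error. On simulated counts with 200 changed genes of 14908, 98.5% were recovered with 0 false calls, and for 12157 lncRNAs it was 54.5% with 7 false calls. Every simulated gene had the same biological coefficient of variation, 7.72%, whereas the 11 rows had a median coefficient of variation of 27.1% in sham libraries. The simulated rates thus do not describe these rows. Alternatives were DESeq2 1.42.0, edgeR's likelihood ratio and exact tests, other filters and normalizations, a test against a fold change of 2, a block on the replicate number, each library left out in turn and, added after seeing the data, both Tap2 rows summed. The members, the gene and marker lists and the tests were chosen with earlier results of these data known. Named genes were every member, constitutive subunit and called regulator, up to 3 called genes per other list by p (2 where none was called), and others as picked with their values known. Coordinates of genes are those of the deposited tables (Rnor_6.0), promoters those of RefSeq on GRCr8, and the builds were not converted. Not every gene of the lists is reported here.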

Additional observations from a re-analysis of the deposited data

How the results depend on the processing

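Of 177 alternative values of the log2FC of the 11 gene rows, the sum of both Tap2 rows included, 158 kept their direction and their call (up-regulated, or for Tapbp not), 19 kept their direction but lost the call, and 0 reversed. Tapbp crossed single thresholds, with a log2FC over 1 in 6 of 16 alternatives and an adjusted p under 0.05 in 1, never both. The number of up-regulated rows was between 7 and 10 under every alternative but the test against a fold change of 2, where it was 4, as was the number of rows with an adjusted p under 0.05. Of the pathway genes outside the 11 rows, 21 were called with the reported settings, 13 with at least 10 counts in every library and 12 in the test against a fold change of 2. The first of these settings tests fewer genes, and the second sets a stricter null hypothesis for the same genes. Pathway genes called lower numbered 0, and between 0 and 1 with a library left out. Up-regulated lncRNAs within 10 kb were 2 as reported, 4 with the likelihood ratio test, 0 without the filter, 1 with at least 10 counts, 0 in the test against a fold change of 2, and between 0 and 2 with a library left out, and the cause was not tested. Same-numbered libraries of the groups showed no clear common deviation over all tested genes (r = -0.11, 0.05 and -0.04). Between differently numbered libraries r lay between -0.13 and 0.15. A link that touches few genes would not show in such values, so they do not settle whether the numbers pair the libraries. With the replicate block 7 rows were up-regulated, Psme1, Tap1 and Nlrc5 missing the threshold, 16 pathway genes were called and 0 lncRNAs. Upper-quartile normalization brought Psme2 to a log2FC of 0.97.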

Other observations

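Genes whose pattern over the 6 libraries was most like that of the class I genes were sought by Pearson's r with the mean of the standardized log2 CPM of the 11 rows, as a description across points that share libraries and group. The 5 highest among other tested genes were Irgm (r = 0.9995), an unnamed gene (ENSRNOG00000053081), Mki67, Etv6 and C1s. The first of these encodes a GTPase of the interferon response, and its level was 38.4, 38.3 and 23.9 CPM in sham libraries 1, 2 and 3 and 90.0, 119.1 and 109.7 CPM in BCP libraries. Mki67, a marker of dividing cells, was measured at 16.6, 18.6 and 5.61 CPM in sham and 70.5, 119.5 and 108.6 CPM in BCP libraries. C1s, a protease of the complement cascade, rose with a log2FC of 2.06. Among the 11 rows themselves r was lowest for Tapbp, at 0.93, and highest for Psmb9, at 0.996. Each row is part of the mean it was compared with, so these values were high in part by construction.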
